A study of Mus musculus with 8 samples.

Results

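The chromosome 7 interval around Nudt19 comprised the array probes that start between 30 and 42 Mb of mouse chromosome 7 (mm9), in the proximal part of the chromosome. It was taken because Pop4, Nudt19 and Slc7a10 had been singled out from the same comparison of the strains, and all probes of these 3 genes were left out. The remaining 321 of 56605 probes carried 215 gene names, and 169 of them were detected, that is well above the local background, on all 8 arrays (28547 of 56605 over the whole array). Of the others, 33 were detected on all B6 arrays but not on all BTBR/R arrays, 36 on some arrays of neither strain in full, and 83 on no array. The first of these probes started at 30007215 and the last at 39304673, and the next probe of the array lay at 46461194, so that the end of the interval held no probe.

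Total RNA of cerebral cortex and striatum tissue was measured on 8 one-colour Agilent arrays, each with 1 male mouse. The 4 BTBR/R mice (BTBRTF/ArtRbrc) were from an inbred strain kept at RIKEN, a subline of BTBR, of which another subline is used as a model of autism, and which carries the spontaneous mutations T (brachyury), Itpr3 tf (tufted) and a t (black and tan). The 4 B6 mice (C57BL/6J) were the controls, and both strains were otherwise untreated. All B6 mice and 3 BTBR/R mice were 4 months old, and BTBR/R replicate 1 was 6 months old. The strains differ over the whole genome, so that the effect of a single allele and that of the rest of the strain background cannot be told apart. On the common slide, column 1 held the B6 arrays and column 2 the BTBR/R arrays, which means that the column and the strain cannot be told apart. In such bulk samples, fewer cells of a type and less RNA per cell also cannot be told apart.

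This part of mouse chromosome 7 is rich in genes that lie close together. It holds a cluster of KRAB zinc finger genes, whose proteins bind DNA with arrays of zinc fingers and silence genes and mobile elements through a corepressor, and which have expanded by duplication, so that many have close relatives. Beside them lie Tyrobp and Hcst, neighbouring genes for the membrane adaptors that carry the signal of activating receptors in microglia and other immune cells. Farther along follow the Fxyd genes for regulators of the sodium pump, the Scgb genes for secretoglobins, which in the mouse include the androgen-binding proteins of saliva and tears, and then Gpi1, Cebpa and Nudt19.

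The sequences below are of probes that the results turn on. They are given 5′ to 3′ as stretches of 30 bases out of the 60 bases of the probe. The first set holds 3 pairs of overlapping probes of the array, and capitals mark the bases at which the probes of a pair differ. Zfp146 (chr7:30946287-30946346, minus strand) and LOC102643033 (chr7:30946281-30946340, minus strand), a predicted gene described as encoding zinc finger protein OZF, had probes that share all but 2 of 54 bases, C2T and C20A, where positions are counted from 1 at the 5′ end of the printed stretch and the base of the Zfp146 probe comes first. The pairs of Polr2i (C5A, second probe first) and Gpi1 (G5T, second probe first) each differ at 1 base and serve for comparison. The array places both probes of a pair over the same bases of the same strand. At a differing base, at most 1 of them can match the genome sequence there.
Zfp146 probe A_55_P1969530: gCacaccacaaactataacCgatagtaaaa
LOC102643033 probe A_55_P2045837: gTacaccacaaactataacAgatagtaaaa
Polr2i probe A_51_P246215: tgatAgttccttcttccacctgtaataaat
Polr2i probe A_55_P1967720: tgatCgttccttcttccacctgtaataaat
Gpi1 probe A_55_P2030433: acctTtatttcacaccccagctagaataaa
Gpi1 probe A_55_P2022434: acctGtatttcacaccccagctagaataaa

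The second set gives bases 16 to 45 of the other main probes whose signal differed by at least 2-fold between the strains, with the positions of the whole probes and no base in capitals.
Zfp790 (chr7:30616595-30616654, plus strand): ccagagatccataatatatatttatataac
C230062I16Rik (chr7:30750671-30750730, plus strand): ctgagaggacattttcatgggtaactgttg
Zfp566 (chr7:30862504-30862563, minus strand): tagaccggagaatgtcgaaacagttgactt
Hspb6 (chr7:31340398-31340457, plus strand): gcaggccttcctaccatcagtccccaataa
Hpn (chr7:31883749-31883808, minus strand): ccccttgtgcagatgctctttaaataataa
Dpy19l3 (chr7:36501640-36501699, minus strand): tcagttctttaactccatgattctgggatc
Zfp507 (chr7:36558866-36558925, minus strand): aggcttaatttatctgtgaaggttaattca

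Levels are given as scaled signals, that is the background-corrected signal on a log2 scale relative to the 75th percentile of its array, and changes as BTBR/R minus B6 on this log2 scale with the standard error of the limma fit over 4 mice per strain. Signals of different probes cannot be set against each other. Calls required a change of at least 2-fold with an adjusted p below 0.05 over all probes. Since the interval was chosen from this comparison, the changes of its members are a description and were given no test of their own.

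The genes that chose the interval were not alike. The 3 probes of Nudt19, which encodes a hydrolase of coenzyme A, had changes of -1.78, -0.72 and -0.95, and the probe of Pop4, a protein subunit of RNase P and RNase MRP, had a change of -2.74. The brighter probe of Slc7a10, a transporter of small neutral amino acids, had a change of 0.29 and was not called.

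In the interval, 77 of 321 probes were called, beside 22.4% of all probes. Of these, 66 were higher in BTBR/R (20.2% of all probes) and 11 were lower (2.27% of all probes). Quantile normalization left 4 higher and 14 lower calls, and normexp background correction left 0 higher and 4 lower calls. Of the 66 higher calls, 58 were probes detected on no array, 6 were detected on some arrays of neither strain in full and 2 on all 8 arrays, and the lowest signal with detection ran from 14.5 to 17.8 in the B6 arrays but from 36.1 to 47.1 in the BTBR/R arrays. The 11 lower calls were all detected on the 4 B6 arrays, and for 4 of them detection extended to all 8 arrays. Of the other 7, Arhgap33os, Ffar2 and the cDNA AK082204 lacked detection in every BTBR/R mouse and were too dim in B6 to give a fold. Among the 169 probes detected on all 8 arrays, 6 were called, beside 2.2% of all such probes. Hpn and Dpy19l3 were higher (1.04% of all such probes), and Zfp790, Zfp566, Zfp146 and Hspb6 were lower (1.16% of all such probes). With normexp, the calls of Zfp790, Zfp146, Hpn and Dpy19l3 were lost, with changes of -0.84, -0.96, 0.75 and 0.64. Among uncalled probes described below, those of Hcst, Tshz3, Polr2i, Plekhf1, Rhpn2, Gpatch1, 1600014C10Rik, Pepd and Pdcd5 also had changes over 1.5 times smaller with normexp, at -0.54, -0.38, 0.36, 0.34, 0.19, -0.17, -0.18, -0.03 and 0.03. The adjusted p was below 0.05 at any size of change for 80 of the 169 (26.9% of all such probes). The changes of the 169 probes ran from -1.31 to 1.09 with a median of -0.02, beside a median of 0.00 for all probes detected on all 8 arrays, and 30 of them exceeded 0.5 in size (17.8%, beside 8.53%).

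By position, the changes did not run in 1 direction around Nudt19. The stretches given here were set after the changes by position had been seen. From 30 to 32 Mb, 104 probes had detection on all 8 arrays, with 44 higher and 60 lower in BTBR/R, a median size of change of 0.24 and 26 probes past 0.5. From 32 to 35 Mb, 25 such probes had a median size of change of 0.05 and none passed 0.5. From 35 to 37 Mb, 18 were higher and 10 lower, with a median size of 0.22, and from 37 Mb on, 3 were higher and 9 lower, with a median size of 0.22. The median size of change was 0.12 over the whole array. The flank from 18 to 30 Mb had 264 probes detected on all 8 arrays, with 4 called and a median size of 0.13. The flank from 42 to 54 Mb had 180 such probes, with 0 called by limma or by the methods' t-test and a median size of 0.10. Of these 180, 40 had an adjusted limma p below 0.05 (22.2%, beside 26.9% of all such probes). At an unadjusted limma p below 0.05 there were 54, beside 10253 of 28547 such probes over the whole array. Among probes detected on all 8 arrays, the last below the lower edge of the interval, of the proteasome subunit gene Psmd8, had a change of 0.02 and Ggn before it 0.63. The first such probe inside, of the potassium channel gene Kcnk6, had -0.29, and the next, of Yif1b, had -0.09. At the upper edge, the last such member was Plekhf1 at 0.61, and the first 3 such probes beyond the gap, of XR_140812, Zfp939 and Zfp619, had -0.15, 0.05 and -0.16.

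The 6 nearest genes around Nudt19 with a probe detected on all 8 arrays had changes in both directions there. On the side toward the start of the chromosome, Cep89, a gene for a centrosomal protein, had scaled signals of 1.91, 1.90, 1.90 and 1.92 in B6 and 1.49, 1.59, 1.42 and 1.56 in BTBR/R, a change of -0.39 ± 0.05 (SE). Next to it, C230052I12Rik, listed by RefSeq as Faap24, a partner of a DNA repair complex, had a change of -0.12 ± 0.05, and Rhpn2 had 0.30 ± 0.09. On the other side, Ankrd27, a regulator of endosomal Rab proteins, had scaled signals of 1.26, 1.34, 1.39 and 1.36 in B6 and 1.66, 1.70, 1.69 and 1.59 in BTBR/R, a change of 0.32 ± 0.05, with 0.20 at its other probe. Pdcd5, at 0.0947 Mb, had a change of 0.05 ± 0.04 and its groups overlapped. In these neighbours, the strains did not overlap in Cep89 and C230052I12Rik (lower in BTBR/R) nor in Rhpn2 and Ankrd27 (higher). Changes of both directions thus lay close to Nudt19.

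Dpy19l3, at 0.169 Mb from Nudt19 and coding for an enzyme that attaches mannose to tryptophan, was the closest called gene among probes detected on all 8 arrays. Nearer to Nudt19, probes of Rgs9bp, Slc7a9 and Rhpn2 without detection on any array were also called higher. Its called probe had scaled signals of -2.98, -3.17, -3.10 and -3.06 in B6 and -2.07, -1.88, -2.02 and -2.04 in BTBR/R. The change was 1.08 ± 0.06, a 2.11-fold higher signal, and no BTBR/R mouse overlapped with a B6 mouse. The other 3 probes of the gene detected on all 8 arrays had changes of 0.29, 0.10 and -0.25. The 2-fold difference was thus seen at 1 of 4 probes, and their directions differed.

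Zfp507, a zinc finger gene at 0.225 Mb, gave a contrast between its probes as well. The probe at 36558866 had scaled signals of 0.03, -0.13, -0.15 and -0.13 in B6 and -3.73, -3.77, -3.24 and -3.56 in BTBR/R, where it was detected on 1 of 4 arrays. On the scaled signals it was at least 10.71-fold lower in BTBR/R, as the B6 mean set against the higher of the dim signal and the lowest detected signal of each BTBR/R array (measured change -3.48 ± 0.12). The bound depends on the detection limit and the background correction, with a change of -3.37 when all signals were floored at the highest limit of the 8 arrays and of -2.33 with normexp. The probe 1270 bases away had scaled signals between -1.10 and -1.01 in B6 and between -1.02 and -0.84 in BTBR/R, a change of 0.11 ± 0.06 with overlapping groups.

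Around Slc7a10, the flanking genes had changes in either direction and none was called. Lrp3 encodes a receptor of the LDL receptor family. Its probe is listed on the opposite strand, within the position of the brighter Slc7a10 probe. This Lrp3 probe had scaled signals of 2.91, 2.70, 2.81 and 2.80 in B6 and 3.28, 3.23, 3.24 and 3.33 in BTBR/R, a change of 0.46 ± 0.06, with 0.27 at the other probe of the gene. Cebpa, a transcription factor known from liver and myeloid cells, had a change of 0.33 ± 0.10. The related factor gene Cebpg had -0.17 ± 0.05, Pepd, a dipeptidase gene, had -0.10 ± 0.05, and Gpatch1 had -0.29 ± 0.08. Around Pop4, Ccne1, the gene of cyclin E1, had a change of 0.00 with overlapping groups, and 1600014C10Rik had -0.36 ± 0.07, with -0.27 at its other probe detected on all 8 arrays. A dimmer probe of 1600014C10Rik, detected on no BTBR/R array, was called, with a signal at least 1.84-fold lower. Plekhf1, an endosomal protein gene and the nearest to Pop4, had scaled signals of -2.65, -3.01, -2.42 and -2.67 in B6 and -1.51, -2.33, -2.59 and -1.88 in BTBR/R, a change of 0.61 ± 0.25 with overlapping groups.

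Zinc finger genes held 3 of the 6 calls among probes detected on all 8 arrays, where 2.2% of all such probes were called. The interval had 39 probes for 18 genes named Zfp or Zbtb, and 26 probes of 17 genes were detected on all 8 arrays. Of these, 15 were higher and 11 lower in BTBR/R, with a median change of 0.05. Of the 26, 3 were called, all lower, and at any size of change 8 were higher and 8 lower with an adjusted p below 0.05 (26.9% of all such probes in either direction). At dimmer probes, Zfp507 was called lower, and Zbtb32, without detection on any array, was called higher.

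The probe of Zfp790 had scaled signals of -1.71, -1.81, -1.07 and -1.78 in B6 and -2.75, -2.89, -2.94 and -2.88 in BTBR/R, a change of -1.27 ± 0.17 or 2.42-fold lower. B6 replicate 3 stood above the other B6 mice, and without it the change was -1.10. The probe of Zfp566 had 0.85, 0.99, 1.09 and 1.11 in B6 and -0.51, 0.18, -0.64 and -0.00 in BTBR/R, a change of -1.25 ± 0.19 or 2.38-fold lower. The BTBR/R mice varied more among themselves than the B6 mice did (SD 0.40 and 0.12, n = 4 each), and the strains did not overlap in either gene.

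For Zfp146, which encodes a protein made almost entirely of zinc fingers, the probe shown above had scaled signals of -0.07, -0.05, 0.04 and -0.01 in B6 and -1.19, -0.72, -1.54 and -1.85 in BTBR/R, a change of -1.31 ± 0.22 or 2.47-fold lower. The probe of LOC102643033, which overlaps it over 54 bases with the 2 differing bases, had -1.75, -1.85, -1.84 and -1.72 in B6 and -1.20, -1.0, -1.05 and -1.07 in BTBR/R, a change of 0.71 ± 0.06 in the opposite direction. The groups did not overlap at either probe. The other probes of Zfp146 had changes of 0.22 and 0.09, so that the lower signal was seen at 1 of 3 probes of the gene.

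The array held 146 such pairs, with starts at most 20 bases apart on the same strand, at most 5 differing bases and detection on all 8 arrays. The changes of the probes in a pair differed by a median of 0.04, and the pair of Zfp146 and LOC102643033 differed the most, by 2.01, with the next pair at 0.89. The pairs were looked for after the values of Zfp146 had been seen. The pair of Polr2i, a subunit gene of RNA polymerase II, had changes of -0.07 and -0.07, and the pair of Gpi1, the glycolytic glucose phosphate isomerase gene, had 0.38 and 0.35. Hcst and Psenen had pairs without a differing base, with changes of -0.87 and -0.89, and of -0.22 and -0.25. In 4 of 5 pairs of the interval, the probes thus gave nearly the same change, also where they differed at 1 base.

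At their probes detected on all 8 arrays, the other zinc finger genes stayed below the 2-fold limit. Zfp30 had scaled signals of 0.66, 0.49, 0.79 and 0.72 in B6 and -0.29, -0.27, -0.17 and -0.20 in BTBR/R, a change of -0.90 ± 0.07, with -0.52 at its other probe. Both probes of Zfp568, a repressor that acts in the early embryo and placenta, were higher, with changes of 0.75 ± 0.10 and 0.89 ± 0.14. Zfp382 had changes of -0.89 and 0.04 at 2 probes, Zfp74 had -0.41 and 0.44, and Zfp27 had -0.46, 0.26 and 0.05. Zfp30 and Zfp568 therefore had probes of 1 direction, and Zfp382, Zfp74 and Zfp27 did not; all but Zfp30 were named after their values were seen. Among the zinc finger genes also lies C230062I16Rik, a cDNA locus with scaled signals of -0.05, 0.08, 0.14 and 0.14 in B6 and -2.23, -4.30, -4.89 and -5.66 in BTBR/R. It was detected on 1 of 4 BTBR/R arrays, and its scaled signal was by the same rule at least 10.17-fold lower there (measured change -4.35 ± 0.67), with a change of -3.29 at the highest detection limit as a floor and of -2.53 with normexp.

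Over the interval, 37 genes had 2 or more probes detected on all 8 arrays, and in 24 of them all probes went in 1 direction. The span between the probes of a gene had a median of 0.15 and reached 0.5 or more in 8 genes, beside a median of 0.15 and 845 of 6508 such genes (12.98%) over the whole array. These were Zfp146, Dpy19l3, Zfp382, Fxyd1, Zfp74, Polr2i, Zfp27 and Tshz3, of which 4 are named Zfp, out of 7 such genes among the 37. The span was 1.53 for Zfp146 and 1.33 for Dpy19l3.

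Glial and immune genes included the adaptors Tyrobp and Hcst, both lower in BTBR/R but by less than 2-fold. Tyrobp, which signals for Trem2 and other receptors of microglia, had scaled signals of 2.24, 2.33, 2.33 and 2.22 in B6 and 1.58, 1.52, 1.58 and 1.40 in BTBR/R, a change of -0.76 ± 0.06. Hcst, which signals for the receptor NKG2D, had -1.85, -1.83, -1.96 and -1.84 in B6 and -2.78, -2.61, -2.63 and -3.03 in BTBR/R, a change of -0.89 ± 0.10, with -0.87 and -0.80 at its other probes detected on all 8 arrays. The strains did not overlap at any of these probes. Igflr1, a receptor gene of the TNF receptor family, had a change of 0.37 ± 0.05, and Nfkbid, a nuclear inhibitor of NF-kB, had 0.33 ± 0.10, whereas a probe of Nfkbid detected on all B6 arrays and no BTBR/R array was at least 1.45-fold lower (measured change -0.67 ± 0.19) and was not called. The list also held Clip3 and Kmt2b, with changes of -0.06 and 0.10 at their probes detected on all 8 arrays. Of the 23 probes for 13 genes of the list, 12 had detection on all 8 arrays, 4 of them higher and 8 lower, with a median change of -0.18. Of the 12, 0 were called by limma or the methods' t-test, beside 2.2% of all such probes. At a smaller change, 6 had an adjusted limma p below 0.05, beside 26.9%, and 8 an unadjusted limma p below 0.05, beside 10253 of 28547. Ffar2, the receptor of short-chain fatty acids, was called lower with a measured change of -1.15, as one of the dim probes that gave no fold. The other 4 calls of the list were higher, at 3 probes of Cd22, a receptor of B cells and microglia, and the probe of Zbtb32, all without detection on any array, beside 67.7% called higher among all such probes.

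Of 8 markers of microglia outside the interval, 6 had an adjusted p below 0.05, of which Aif1, Cx3cr1, C1qa, C1qb and Trem2 were lower in BTBR/R and P2ry12 was higher (0.22). Csf1r and Itgam, at -0.03 and -0.01, had no unadjusted p below 0.05. The median change was -0.30, and 1 was called, the complement gene C1qb (-1.42). The mean scaled signal of the 8 markers was 2.69 to 2.75 in B6 mice and 2.25 to 2.38 in BTBR/R mice, and all 8 were detected on all arrays. Their part in the changes of Tyrobp and Hcst was not tested. Of 8 oligodendrocyte markers, all had changes below 0 with a median of -0.29, 0 were called by limma or the methods' t-test and 4 had an adjusted p below 0.05, Mog, Mobp, Mal and Ermn (7 at an unadjusted p), with means of 4.19 to 4.53 in B6 and 3.94 to 4.12 in BTBR/R. The myelin-associated glycoprotein gene Mag, a member of the interval, had changes of -0.28 ± 0.12 and -0.26 ± 0.09 at its probes, and the part of the oligodendrocyte markers in these was not tested either. The 9 markers of cortical and striatal neurons had a median change of 0.02, 0 were called by either test or at an unadjusted p below 0.05, and all were detected on all arrays. Of the 5 astrocyte markers 4 had changes below 0, with a median change of -0.28 and 0 called by either test, and 3 had an adjusted p below 0.05, Aqp4, Aldh1l1 and Slc1a2, all lower. The 4 choroid plexus markers had means of -1.81 to 0.72 in B6 and -1.42 to 0.04 in BTBR/R, with 0 called by either test or at an unadjusted p below 0.05. Of 4 markers of cerebellum and thalamus tissue, Gabra6 was detected on no array and was called higher, as were 67.7% of all such probes, and the other 3 were not called.

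Among metabolic and mitochondrial genes, 11 of 17 probes had detection on all 8 arrays, 6 of them higher and 5 lower, with a median change of 0.12. At any size of change, 5 were higher and 4 lower with an adjusted p below 0.05 (26.9% of all such probes in either direction). Hpn, the gene of the membrane serine protease hepsin, had scaled signals of -2.21, -2.16, -2.03 and -2.33 in B6 and -1.20, -0.84, -1.19 and -1.17 in BTBR/R, a change of 1.09 ± 0.10 or 2.12-fold higher, and was the only 1 of the 11 called (2.2% of all such probes). BTBR/R replicate 2 was the highest of its group, and without it the change was 1.0, just under 2-fold and no longer called. Sdhaf1, an assembly factor of respiratory complex II, had 2.01, 1.99, 2.0 and 2.03 in B6 and 1.34, 1.28, 1.43 and 1.34 in BTBR/R, a change of -0.66 ± 0.05. Cox7a1, a complex IV subunit known from heart and muscle, had -0.53 ± 0.07, and Alkbh6, an oxygenase of the AlkB family, had -0.57 ± 0.04 with -0.18 at its other probe. The 4 probes of Gpi1 had changes between 0.33 and 0.41. The strains did not overlap in Sdhaf1, Cox7a1 or Alkbh6.

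Hspb6, the small heat shock protein gene also called Hsp20, had the lower signal at both of its probes. The probe shown above had scaled signals of -0.15, -0.04, -0.16 and -0.37 in B6 and -1.32, -1.34, -1.39 and -1.34 in BTBR/R, a change of -1.17 ± 0.07 or 2.25-fold lower. The dimmer probe was called too, with detection on no BTBR/R array and a signal at least 1.35-fold lower (measured change -1.73 ± 0.20). Lin37, a subunit gene of a cell cycle repressor complex, whose probe lies 158 bases away from the start of that of Hspb6 on the other strand, had 1.41, 1.43, 1.42 and 1.51 in B6 and 0.83, 0.83, 0.85 and 0.90 in BTBR/R, a change of -0.59 ± 0.05. The strains did not overlap at these 3 probes.

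Of the transcription, RNA and cell cycle genes, 34 of 42 probes were detected on all 8 arrays, with 14 higher and 20 lower, a median change of -0.03 and 0 called by limma or the methods' t-test. At any size of change, 4 of the 34 were higher and 11 lower with an adjusted p below 0.05, beside 26.9% of all such probes in either direction. At an unadjusted limma p below 0.05 there were 16, beside 10253 of 28547 such probes. Tbcb, a folding cofactor of tubulin, had scaled signals of 4.13, 4.15, 4.11 and 4.16 in B6 and 3.41, 3.53, 3.50 and 3.53 in BTBR/R, a change of -0.65 ± 0.05. The largest change of Polr2i was 0.63 ± 0.09 at a dim probe, beside -0.20, -0.07 and -0.07 at the other 3. Tbcb was thus lower in each BTBR/R mouse than in each B6 mouse, whereas Polr2i differed by probe.

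Of the ion channel and transporter genes, 15 of 23 probes were detected on all 8 arrays, with 13 higher and 2 lower, a median change of 0.14 and 0 called by limma or the methods' t-test. At any size of change, 5 of the 15 were higher and 0 lower with an adjusted p below 0.05, near the 26.9% of all such probes in either direction. At an unadjusted limma p below 0.05 there were 6, beside 10253 of 28547 such probes. Fxyd1, or phospholemman, had scaled signals of -0.10, 0.04, -0.08 and -0.33 in B6 and 0.61, 0.75, 0.76 and 0.58 in BTBR/R at its probe of largest change, 0.79 ± 0.09. Its other probe had -0.13 with overlapping groups. Fxyd7, the member of the family found in brain, had 0.24 ± 0.07 and 0.14. The higher signal of Fxyd1 was thus seen at 1 of its 2 probes.

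Of the neuronal and adhesion genes, 18 of 25 probes were detected on all 8 arrays, with 9 higher, 9 lower and a median change of -0.01, and of these 18 the probe of Dpy19l3 was the only one called (2.2% of all such probes). A dim probe of Wdr62, detected on 1 BTBR/R array, was called higher as well. At any size of change, 4 of the 18 were higher and 5 lower with an adjusted p below 0.05, beside 26.9% of all such probes in either direction. Wtip, a LIM domain protein gene, had scaled signals of 0.91, 0.94, 0.91 and 0.96 in B6 and 1.41, 1.33, 1.38 and 1.33 in BTBR/R, a change of 0.43 ± 0.04, with 0.38 at its other probe. Tshz3, a transcription factor of cortical projection neurons, had -0.59 ± 0.10 at the probe of largest change and 0.09 at the other. Psenen, a subunit gene of gamma-secretase, had -0.27 ± 0.05, with -0.25 and -0.22 at its other probes. Wtip and Psenen differed in the same direction at all of their probes detected on all 8 arrays, and Tshz3 did not.

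Calls at probes not detected on all 8 arrays also came from the metabolic list (5, at Hamp, Hamp2, Prodh2, Gapdhs and a second probe of Hpn), the ion channel and transporter list (4, at Slc7a9, Rgs9bp and Fxyd3) and the transcription list (1, at Rhpn2), all higher in BTBR/R. All but the probe of Hamp were detected on no array, where 67.7% of all probes were called higher.

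The Scgb genes filled much of the stretch from 32 to 35 Mb. Of 21 probes for 19 genes, 16 were detected on no array and 3 on all 8 arrays, and 14 were called higher in BTBR/R, of which 14 were detected on no array, beside 67.7% called higher among all probes detected on no array. The probes detected on all 8 arrays were those of Scgb1b3, Scgb2b15 and Scgb2b20, with changes of -0.01 ± 0.07, 0.32 ± 0.37 and -0.11 ± 0.07 and overlapping groups. None of these 3 was called by limma or the methods' t-test or had an unadjusted p below 0.05, and the calls of the cluster came from probes without a detected signal.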

How the data were processed

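RNA of the cerebral cortex and striatum from 4 male BTBR/R and 4 male B6 mice was hybridised to 8 one-colour arrays, 1 mouse each, and grouped by the strain in the sample labels. The authors deposited the spot intensities of Agilent Feature Extraction 10.7.3.1, among them the processed signal (background subtracted, with a surrogate for low signals), and log2 values, which were log2 of the processed signal shifted by an array constant. Here control spots and outliers were left out, the 10 spots of 300 probes were averaged, and 56605 probes were scaled by the 75th percentile of each array and fitted together with limma 3.58.1 in R 4.3.3 (lmFit, eBayes, Benjamini-Hochberg adjustment). Calls needed an adjusted p below 0.05 and a 2-fold change. The number of arrays limits the precision, and p-values set the strain difference against the spread between these mice. In simulated data for BTBR/R minus B6 over 56583 probes, 162 of 200 changed and 3 unchanged probes were called. Tables were made with pandas 2.3.3 and numpy 2.4.6 in Python 3.11.15.

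Positions and gene names are those of the arrays (mm9). Of 321 interval probes, 224 had a RefSeq accession, 204 were matched to a table of RefSeq genes (GRCm38.p6, names only), and 5 had another symbol there. The annotation of exons was not used here, so whether a probe lies in a coding or untranslated part is not given.

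The members, gene lists and tests were chosen with earlier results of these data known. Named genes were interval genes called on all 8 arrays or with a bound of at least 2-fold, the 3 nearest measured genes on each side of Nudt19 and Slc7a10 and before Pop4, beyond which no member was detected on all 8 arrays, up to 4 genes of largest change per list, and genes with a called probe and another probe detected on all 8 arrays that changed by under 1.2-fold or the other way. Alternatives were other background corrections, scalings, detection filters, tests, an interval from 32 to 40 Mb, 1 probe per gene, and leaving out each mouse.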

Additional observations from a re-analysis of the deposited data

Results flagged for a closer look

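In 74 groups of 4 arrays of the named genes, 6 held a mouse that stood apart from the other 3 of its strain, by a gap beyond Dixon's critical value, which chance alone exceeds in about 1 in 20 groups. B6 replicate 3 had a scaled signal of -1.07 for Zfp790, beside -1.81 to -1.71 in the other B6 mice, and of -1.96 for Hcst, beside -1.85 to -1.83. B6 replicate 4 had -1.66 for 1600014C10Rik, beside -1.46 to -1.43, and 1.51 for Lin37, beside 1.41 to 1.43. B6 replicate 1 had 0.79 for C230052I12Rik, beside 0.87 to 0.88. BTBR/R replicate 2 had -0.84 for Hpn, beside -1.20 to -1.17 in the other BTBR/R mice.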

How the results depend on the processing

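Dim probes set the number of calls in the interval. The 77 calls became 4 with normexp background correction, 18 with quantile normalization, 13 among probes detected on every array of 1 strain, 6 among those detected on all 8 arrays, 8 with signals floored at the highest detection limit (added after seeing the data) and 39 for 32 to 40 Mb. The 6 calls among probes detected on all 8 arrays became 2 with normexp and 1 for 32 to 40 Mb, where only Dpy19l3 of the 6 lies, and stayed 6 with the other scalings and tests. With 1 probe per gene 54 and 4 were called. Leaving out each mouse gave 69 to 80 calls, 5 to 6 among probes detected on all 8 arrays, and a median change of -0.03 to -0.02. The call of Hpn was lost without BTBR/R replicate 2 (1.0). C230062I16Rik ran from -5.03 without BTBR/R replicate 1, the older mouse, to -3.88 without BTBR/R replicate 4, and was -2.53 with normexp. No called change of a named gene was reversed, and 704 of 720 values of named genes under the alternatives kept their call or moved by less than the spread between mice.

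The same replicate numbers did not pair the mice, with correlations of their deviations between -0.07 and 0.16, and with the replicate number as a block 70 probes of the interval were called, 6 of them detected on all 8 arrays. A block for slide or scan was not run, since all arrays shared 1 slide and 1 scan.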
